A study of Mus musculus with 46 samples.

Results

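The collagen chains are the genes whose symbol is Col, a type number, the letter a and a chain number, and 44 of the 55487 genes listed in every library met that rule. The rule used names and no measured value. RNA was measured in 46 mouse libraries from 3 experiments of a study whose title asks how signals from mitochondria govern the identity and maturity of metabolic tissues. Pancreatic islets, the hormone-secreting clusters of the pancreas, came as 5 Tfam control and 4 Tfam KO libraries of females with 3 control and 2 KO libraries of males, and as Clec16a control and KO libraries on 2 diets, RFD (4 and 4) and HFD (6 and 5). Livers came as 6 control, 4 Mfn DKO and 3 Tfam KO libraries.

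Tfam packages mitochondrial DNA and takes part in its transcription, Clec16a regulates the removal of damaged mitochondria, and the mitofusins Mfn1 and Mfn2 fuse mitochondria. The labels do not write out RFD or HFD, name no promoter or Cre line, and give no age or strain; islets spent a night in culture, livers were flash frozen, and the liver descriptions carry the letters AAV with no more detail. The design text says that males and females were used, and sex is labelled in the Tfam islets only. In the livers the RNA Xist, which is made from the inactive X chromosome, was over 100 CPM in 3 control, 2 Mfn DKO and 2 Tfam KO libraries and under 5 CPM in the other 3, 2 and 1, while all 19 Clec16a libraries were over 100 CPM.

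A collagen chain winds with others into a rope-like helix. Fibrillar types (I, II, III, V, XI, XXIV and XXVII) make the cables of connective tissue, fibril-associated types coat them, type IV forms the sheet of the basement membrane, and type VI forms beaded filaments beside it. In islets the basement membrane is known to be laid down mainly by the endothelial cells of the capillaries, and in liver fibrillar collagen is known as the product of stellate cells and of scarring.

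Sequences are shown for the pair of chains that moved together in both liver models and for Col27a1, called higher in the Clec16a islets and lower in both liver models. Col4a1 (ENSMUSG00000031502, chromosome 8, 11198423 to 11312826, minus strand, GRCm38) and Col4a2 (ENSMUSG00000031503, chromosome 8, 11312805 to 11449287, plus strand), the main chains of basement membrane, lie head to head, and their annotated starts overlap by 22 bases. The other type IV genes are arranged alike, with 71 bases between Col4a4 and Col4a3 and 1308 between Col4a6 and Col4a5. Col27a1 (ENSMUSG00000045672), a fibrillar chain best known from cartilage, lies on chromosome 4 at 63214004 to 63334991, plus strand. The stretches below are on the plus strand, from the RefSeq promoter windows of GRCm38.p6, with the motifs GGGCGG and CCAAT (or their reverse complements) in capitals; the first covers both annotated starts of the pair and the second lies before the Col4a2 start, inside the annotated span of Col4a1. The third is the 250 bases before the RefSeq start of Col27a1 (63215412), which lies inside the longer GENCODE span given above.
Col4a1 and Col4a2, both starts, chr8:11312801-11312830: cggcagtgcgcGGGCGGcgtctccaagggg
Col4a1 and Col4a2, before the Col4a2 start, chr8:11312757-11312786: CCGCCCgaggagctccCCAATttgttggcg
Col27a1, chr4:63215162-63215411: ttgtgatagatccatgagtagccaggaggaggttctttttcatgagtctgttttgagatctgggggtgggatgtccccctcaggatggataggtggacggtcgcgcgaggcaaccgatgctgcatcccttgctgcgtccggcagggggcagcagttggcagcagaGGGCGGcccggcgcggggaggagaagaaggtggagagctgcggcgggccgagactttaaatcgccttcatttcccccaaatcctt
Windows of 300 bases around the start, 250 before it and 50 from it on, were found for 35 of the 44 chains. On either strand GGGCGG stood in 23 of their 38 windows (22 of the 35 chains), against 35.7% of all 32851 windows. CCAAT stood in 13 of the 38, against 37.4% of all windows. TATAAA stood in 5 (13.6% of all windows) and TGATGCAA in 0 (0.895%). The windows of Col4a1, Col4a2 and Col27a1 held 74.0%, 73.7% and 61.7% G and C, against a median of 52.7% over all windows. A match is a description of the window only.

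In control tissue the collagens of islets and of liver differed in rank. Levels between genes are compared per length, as the deposited TPM (transcripts scaled to the library total). In the 8 Tfam control islet libraries Col4a1 was first at 31.1 TPM ± 5.98 (SD, n = 8), and Col6a6, the alpha 6 chain of type VI collagen, followed at 19 TPM ± 4.89. Col4a2 stood at 18.4 TPM ± 3.74, which overlapped Col6a6, and Col15a1, a basement membrane zone collagen, at 6.93 TPM ± 1.19. These first 3 chains held 56.2% of the summed collagen level, and the order of the first 4 was the same in the Clec16a controls on RFD and on HFD.

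In the 6 control livers Col18a1, a collagen known to be made by hepatocytes and cut to give endostatin, stood at 297 TPM ± 38.7 (SD, n = 6) and held 76.7% of the summed collagen level. Col27a1 followed at 20.8 TPM ± 9.54 and Col14a1, a fibril-associated chain, at 18.3 TPM ± 3.40, with ranges that overlapped. Col6a6, second in islets, had 6 to 40 counts in the control livers, and Col9a2 had 0 to 2. Col2a1, Col9a1, Col10a1, Col17a1 and Col19a1 never passed 12 counts in any library and were tested in no experiment.

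**Figure D1:**
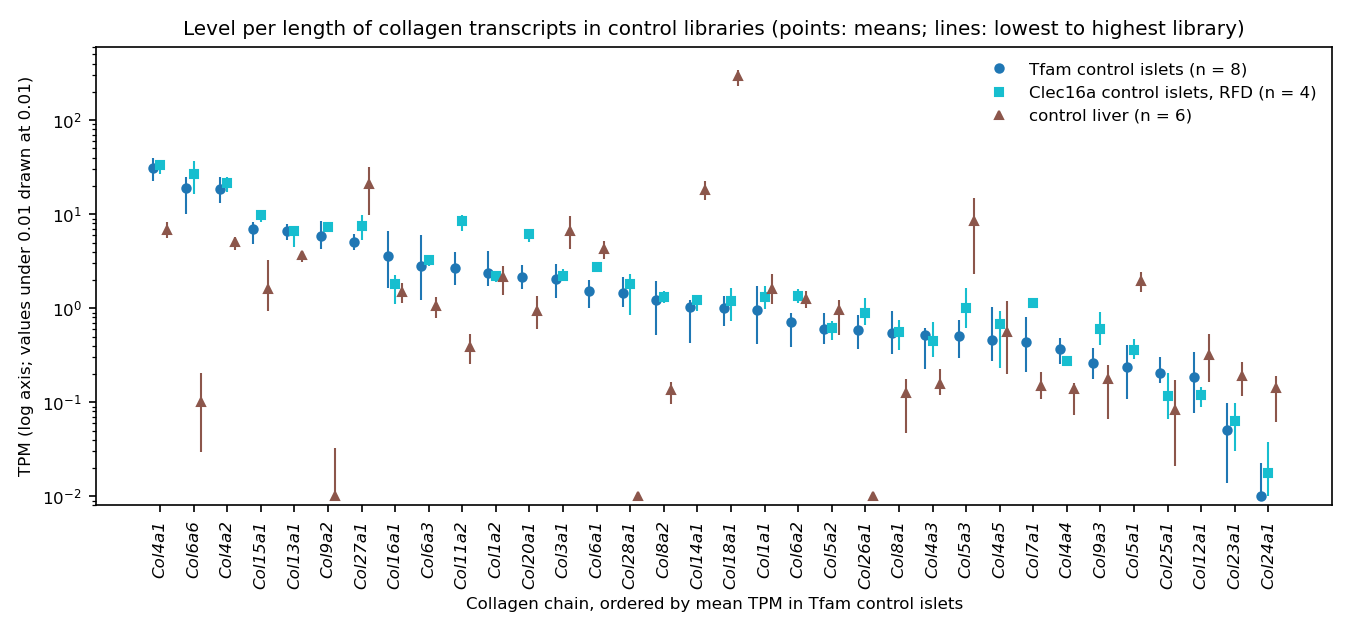
TPM (log axis) of collagen chains in 8 Tfam control islet, 4 Clec16a control islet (RFD) and 6 control liver libraries; points are means and lines run from the lowest to the highest library. Col4a1, Col6a6 and Col4a2 lead in islets, and Col18a1, at 297 TPM, leads in liver.

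Genes were compared within each experiment with edgeR's quasi-likelihood F-test, and called at a Benjamini-Hochberg adjusted p of 0.05 or less over all genes tested. Values by library are counts over the TMM-scaled library size, in CPM (normalised CPM), and differences are log2 fold changes ± SE. Total counts per library ran from 16235173 to 83342809. Of the targeted genes, Tfam fell in the Tfam KO islets (-1.21 on the log2 scale) and Tfam KO livers (-2.0), and Mfn1 (-2.0) and Mfn2 (-2.04) fell in the Mfn DKO livers. Clec16a was not lower in the Clec16a KO libraries (0.13 on RFD, adjusted p = 0.612; 0.08 on HFD, adjusted p = 0.74), so the transcript count does not check those labels. Summed β-cell markers ran from 105143 to 346273 CPM over the islets and summed hepatocyte markers from 23240 to 137568 CPM over the livers; acinar markers summed to 895 to 26558 CPM in the islets.

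A pair of libraries stood apart in their cell markers. Replicate 4 of the Clec16a KO on HFD had summed endothelial markers of 500 CPM against 772 to 879 CPM in the other 4, summed mesenchymal markers of 124 CPM against 208 to 303 CPM, and summed mesothelial markers of 92.8 CPM against 2.62 to 16.2 CPM. Replicate 2 of the Tfam KO livers had 23240 CPM of summed hepatocyte markers against 60313 and 94465 CPM in the others, and 10783 CPM of Afp, the fetal liver protein alpha-fetoprotein (a gene chosen after its values were seen), against 1.07 to 8.35 CPM in the other 12 livers. Values without these libraries stand beside the chains and pathway genes whose call or size rests on them.

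Over 10 comparisons, 23 of the 44 chains were called in at least 1, which is 59% of the 39 chains tested anywhere, where 42.4% of the 21451 genes tested anywhere were. Of these, 19 were called higher only, 2 lower only (Col6a6 and Col25a1) and 2 in both directions (Col27a1 and Col5a3). Col1a1 and Col4a2 were called higher in 4 comparisons each, and Col1a2 in 3. The Clec16a comparisons within a diet share no library with each other, while the 2 liver comparisons share the 6 controls.

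**Figure D2:**
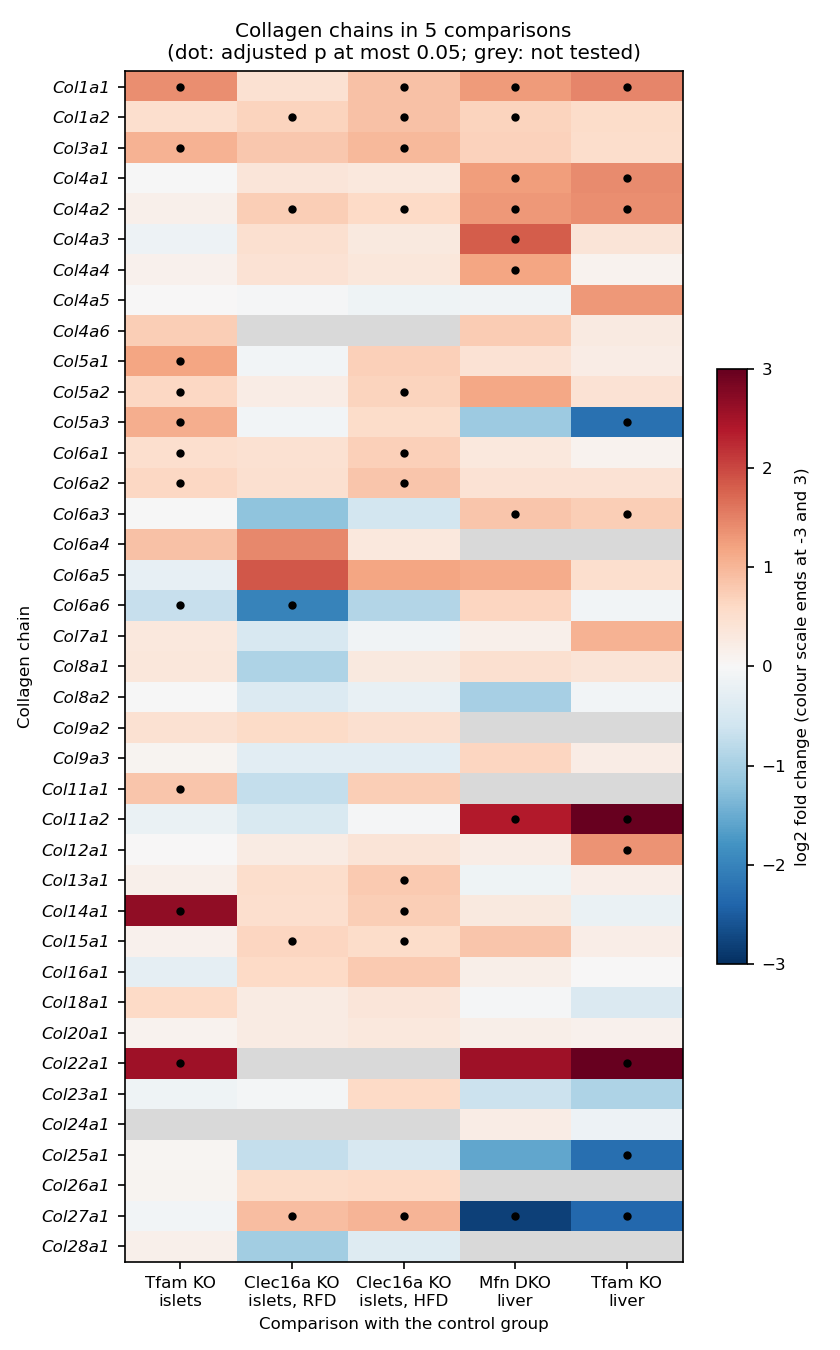
Log2 fold changes (colour, scale ending at -3 and 3) of the 39 collagen chains tested in at least 1 experiment, in 5 comparisons with controls; dots mark an adjusted p of at most 0.05 and grey marks chains not tested. Col1a1 carries a dot in 4 columns, Col4a2 in 4, and Col27a1 is raised in both Clec16a columns and lowered in both liver columns.

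The Tfam KO islets held more RNA of Col14a1, a fibril-associated collagen, and of 6 fibrillar chains than the controls, and less of Col6a6, while the type IV chains did not pass the test. Of 38 chains tested 10 were called higher and 1 lower, which is 28.9% of the chains, where 20.9% of all 19752 genes tested were called; by direction, 11.6% of all genes were called higher and 9.29% lower. The median log2 fold change of the chains was 0.15, with 28 above 0, against -0.01 over all genes. In bulk RNA, more cells of a type and more RNA per cell cannot be told apart. Of the fibrillar chains 6 of 9 were called higher and none lower, with a median of 0.84; of the type IV chains 0 of 6 were called.

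Col14a1 (ENSMUSG00000022371, chromosome 15, 55307750 to 55520803), which sits on the surface of collagen fibrils, showed the smallest adjusted p. It stood at 23.8, 18.8, 16.7 and 19.1 normalised CPM in the female KO libraries and at 21.4 and 26.0 in the male ones. The controls were at 3.64, 3.60, 4.01, 1.80 and 3.77 (females) and 3.49, 2.56 and 3.77 (males). All 6 KO libraries lay above all 8 controls, with a log2 fold change of 2.65 ± 0.15 (adjusted p = 4.82e-09).

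Col3a1, the chain of type III collagen, was 13.5, 20.2, 12.4 and 16.6 normalised CPM in female and 25.5 and 30.6 in male KO libraries. Control values were 9.38, 6.85, 12.0, 7.61 and 10.1 in females and 8.89, 7.09 and 13.5 in males. The groups overlapped at 1 male control, and the difference was 1.04 ± 0.18 (adjusted p = 0.000554).

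Col1a1, the alpha 1 chain of type I collagen, was at 5.68, 6.90, 4.15 and 6.86 normalised CPM in female and 13.7 and 10 in male KO libraries. The 8 controls ran from 1.65 to 5.24, so that 1 KO library lay among them (1.38 ± 0.30, adjusted p = 0.00372). Its partner Col1a2 ran from 13.5 to 23.7 in the KO and from 9.70 to 23.5 in the controls and did not pass the test (0.51 ± 0.18, adjusted p = 0.0568). Per length, the ratio of Col1a1 to Col1a2 was 0.745 ± 0.218 (SD, n = 6) in the KO and 0.395 ± 0.148 (n = 8) in the controls; this ratio was not tested.

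The type V chains, which regulate how thick a type I fibril grows, all passed. Col5a1 stood at 1.61, 1.77, 1.41 and 1.57 normalised CPM in female and 3.36 and 3.49 in male KO libraries, against 0.560 to 1.52 in the controls (1.18 ± 0.23, adjusted p = 0.00144), with 1 female control inside the KO range. Col5a3 stood at 2.20 to 5.71 in the KO and 0.907 to 2.29 in the controls (1.09 ± 0.23, adjusted p = 0.00293). Col5a2 had the smallest margin (0.62 ± 0.21, adjusted p = 0.0447).

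Col6a6 was the 1 chain called lower. It stood at 44.7, 61.6, 51.1 and 51.4 normalised CPM in female and 48.4 and 42.2 in male KO libraries. The controls were at 90.7, 91.6, 61.3, 54.9 and 104 in females and 76.7, 83 and 83.5 in males, so the groups met only at 2 female controls (-0.70 ± 0.13, adjusted p = 0.00105). Of the chains that form the core of the type VI filament, Col6a1 and Col6a2 went the other way, by 0.50 ± 0.15 (adjusted p = 0.0276) and 0.62 ± 0.15 (adjusted p = 0.00855). Col6a3, the third core chain, was not called, and its KO libraries all lay within the control range.

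Col22a1, a collagen of tissue junctions, was called at a low level, with 0.249 to 0.591 normalised CPM in the KO and 0 to 0.290 in the controls (2.54 ± 0.59, adjusted p = 0.00579). Col11a1, a minor fibrillar chain, was also called (0.84 ± 0.28, adjusted p = 0.042). Of the 14 fits that left out 1 library, Col11a1 and Col5a2 were called in 4 each and Col6a1 in 10. Of the basement membrane chains, Col4a1 was 84.1 to 142 in the KO and 85.2 to 137 in the controls (-0.02 ± 0.11), Col4a2 46.3 to 86.7 and 47.5 to 77.4 (0.15 ± 0.13), and Col15a1 17.1 to 29.2 and 17.3 to 23.7 (0.12 ± 0.12). The ratio of Col4a1 to Col4a2 per length was 1.51 ± 0.0779 (SD, n = 6) in the KO and 1.69 ± 0.123 (n = 8) in the controls, with overlap and with no test. Col18a1 stood at 3.09 to 7.87 in the KO and 2.06 to 4.93 in the controls (0.59 ± 0.22, adjusted p = 0.0701).

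**Figure D3:**
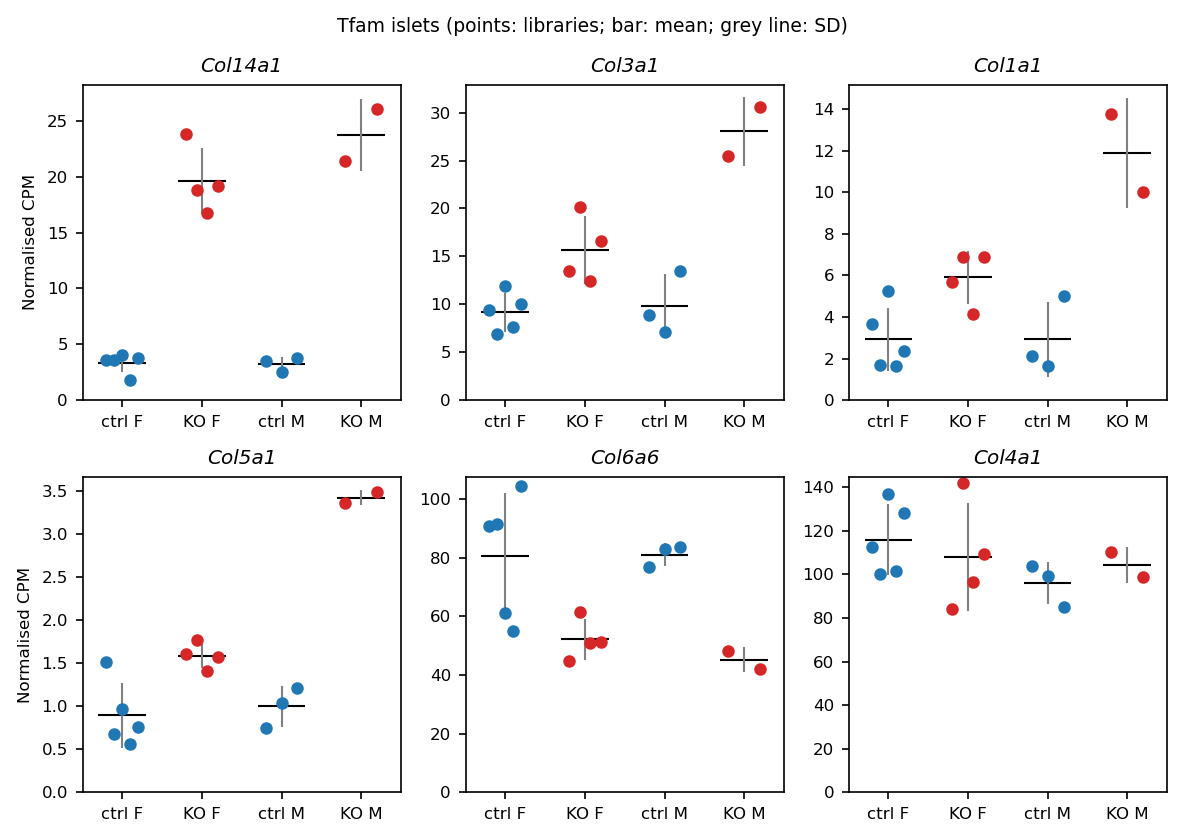
Normalised CPM of 6 collagen chains in Tfam islets, by genotype and sex; points are libraries, bars means and grey lines SD. All KO points of Col14a1 (16.7 to 26.0) lie above all controls (1.80 to 4.01), and Col4a1 overlaps fully.

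Male KO libraries lay above female KO libraries for Col5a1, Col3a1 and Col1a1. The KO effect in males less that in females had a median of 0.36 on the log2 scale over 38 chains, with 35 above 0. Over all genes the median was -0.001, and the male KO group holds only 2 libraries. No chain passed the test of the genotype effect between sexes, in which 0 of all genes tested were called. In that test 8 chains (21.1%) had an unadjusted p under 0.05, as had 6.23% of all genes. DESeq2's Wald test called 1 chain there. Among Col5a1, Col3a1 and Col1a1 the largest difference between the sexes in edgeR's test was 1.01 ± 0.59 for Col1a1 (adjusted p = 0.874). The male KO libraries also held more RNA of mesenchymal markers (164 to 195 CPM summed, against 126 to 139 CPM in the female KO) and of macrophage markers (192 to 202 CPM, against 128 to 162 CPM). Their acinar markers, 3099 and 15771 CPM, overlapped the 1353 to 3459 CPM of the female KO. The part of these markers was not tested.

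Summed mesenchymal markers (12 genes of fibroblasts, stellate cells and pericytes) ran from 126 to 195 CPM in the KO and from 154 to 189 CPM in the controls, with 0 markers of 11 tested higher and 2 lower (Acta2 -0.72, Rgs5 -0.23). Summed endothelial markers ran from 384 to 496 CPM and from 382 to 487 CPM, and summed β-cell markers fell from between 187733 and 293881 CPM to between 105143 and 140851 CPM, all 8 being called lower. Msln, a marker of mesothelium, was called higher (0.85, adjusted p = 0.00133). The part of the β-cell and mesothelial markers in the collagen result was not tested. With the mesenchymal score as a covariate 13 chains were called, and with the endothelial score 8. The share of all genes called with these scores is not given here, so the counts are not a result about collagens alone.

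Among genes that modify, cut or hold collagen, of 20 tested that fold and secrete it 5 were called lower and 1 higher in the Tfam KO islets. Crtap, a partner of prolyl 3-hydroxylase, fell by 0.68 ± 0.09 (adjusted p = 9.13e-05), Sec24d, a coat protein of the vesicles that carry procollagen, by 0.31 ± 0.07 (adjusted p = 0.00488), and the galactosyltransferase Colgalt1 rose by 0.21 ± 0.04 (adjusted p = 0.00313). Of 10 processing and crosslinking genes 0 were higher and 2 lower, the crosslinking enzyme Loxl2 (-0.69 ± 0.11, adjusted p = 0.000245) and the procollagen C-proteinase Bmp1 (-0.43 ± 0.09, adjusted p = 0.00344). Of 14 degradation genes 2 were higher, the collagen-cutting cathepsin Ctsk (1.34 ± 0.21, adjusted p = 0.000281) and the macrophage elastase Mmp12 (0.88 ± 0.27, adjusted p = 0.028). Of 14 fibril partners 2 were higher, the small proteoglycan Bgn (0.64 ± 0.14, adjusted p = 0.00304) and the fibulin Fbln2 (1.12 ± 0.31, adjusted p = 0.0178). Of 17 genes of the TGF-β pathway, which drives collagen transcription in fibrosis, 1 was higher and 3 lower. The shares called were 30% for folding and secretion, 20% for processing, 14.3% for degradation and for fibril partners, and 23.5% for TGF-β. Of all genes 20.9% were called, so except for folding and secretion these shares lie near or under the background.

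The Clec16a KO islets held more RNA of the type IV chain Col4a2, of Col15a1, Col1a2 and Col27a1 on either diet, and on RFD a lower level of Col6a6. On RFD, of 36 chains tested 4 were called higher and 1 lower, 13.9% of the chains, where 7.52% of all 17254 genes tested were called, 3.99% higher and 3.54% lower. On HFD 11 were called higher and none lower, 30.6%, where 9.57% of all genes were called, 5.62% higher and 3.95% lower. The median log2 fold change of the chains was 0.30 on RFD and 0.52 on HFD, and 0.00 over all genes on each diet.

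Col4a2 on RFD was at 133, 85.8, 115 and 116 normalised CPM in the KO and at 56.3, 69.6, 73.3 and 72.6 in the controls. The groups did not overlap (0.73 ± 0.14, adjusted p = 0.0063). On HFD it was at 111, 115, 128, 80.4 and 102 in the KO, and the 6 controls ran from 59.3 through a median of 70.9 to 80.5 (0.61 ± 0.12, adjusted p = 0.00398). The lowest KO value on HFD, 80.4, is that of replicate 4 and lay just under the highest control.

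Col4a1 shares its starting region with Col4a2 and did not pass: it was 110 to 180 normalised CPM in the KO and 97.5 to 136 in the controls on RFD (0.36 ± 0.13, adjusted p = 0.112). On HFD it was 131 to 170 in the KO and 102 to 130 in the controls, with no overlap (0.31 ± 0.11, adjusted p = 0.1). Per length, the ratio of Col4a1 to Col4a2 on RFD was 1.20 ± 0.0543 (SD, n = 4) in the KO and 1.56 ± 0.123 (n = 4) in the controls, with ranges of 1.14 to 1.27 and 1.45 to 1.74; on HFD the ranges overlapped. These ratios were not tested.

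Col15a1, which links basement membrane to the fibrils beneath it, was at 58.7, 42.1, 45.6 and 42.6 normalised CPM in the KO on RFD and at 26.1, 34.6, 29.1 and 30.3 in the controls (0.65 ± 0.17, adjusted p = 0.0211), with no overlap. On HFD it was 32.3 to 56.0 and 22.2 to 34.7 (0.54 ± 0.14, adjusted p = 0.0199). Col1a2 was at 25, 19.3, 16 and 23.8 in the KO on RFD against 12.1, 16.7, 10.8 and 13.2, with 1 KO library below the highest control (0.66 ± 0.19, adjusted p = 0.0397). On HFD Col1a2 ran from 15.4 to 21.2 in the KO, and 5 of 6 controls lay at 10.3 or less, the other at 16 (0.87 ± 0.17, adjusted p = 0.00293).

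Col27a1 was at 106, 113, 85.1 and 46.3 normalised CPM in the KO on RFD and at 42.3, 38.3, 47.6 and 56.5 in the controls. Replicate 4 lay among the controls (0.92 ± 0.27, adjusted p = 0.0413). On HFD the KO libraries were at 78.4, 86.8, 91.2, 36.1 and 62.4 and the controls between 24.8 and 45.4, with replicate 4 again inside the control range (1.02 ± 0.23, adjusted p = 0.00851).

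Col6a6 (ENSMUSG00000043719, chromosome 9, 105687809 to 105828160), second of the islet collagens, was at 34.8, 22.1, 29.8 and 30.4 normalised CPM in the KO on RFD and at 90.7, 82.4, 145 and 149 in the controls. No libraries overlapped (-1.99 ± 0.39, adjusted p = 0.00575). On HFD the KO libraries were at 37.1, 36.4, 47.5, 129 and 18.2 and the controls between 79.1 and 126. All KO libraries except replicate 4 lay below the controls, and that library lay above them; the difference was -0.89 ± 0.33 (adjusted p = 0.0944) with it and -1.51 ± 0.23 (adjusted p = 8.29e-05) without it.

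The remaining chains called on HFD were Col6a1 (0.72 ± 0.18, adjusted p = 0.0173) and Col6a2 (0.82 ± 0.22), Col3a1 (0.97 ± 0.26), Col5a2 (0.66 ± 0.20), Col1a1 (0.88 ± 0.27), Col14a1 (0.74 ± 0.22) and Col13a1 (0.79 ± 0.22). Col6a1 stood at 11.4, 11.8, 14.6, 7.15 and 9.78 normalised CPM in the KO and at 5.25 to 9.13 in the controls, with replicate 4 inside the control range. Col6a2 stood at 8.94, 11.5, 15.9, 7.31 and 10.9 in the KO and at 4.52 to 8.62 in the controls, again with replicate 4 inside it. Col6a3 was not called on either diet, and 3 of 4 KO libraries on RFD and 2 of 5 on HFD lay below all controls. Col13a1, a collagen that spans the cell membrane, was at 33.1, 30.8, 32.3, 10.8 and 27.0 in the KO and at 10.7 to 19.2 in the controls.

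Without replicate 4, 16 chains of 35 tested were called on HFD, 15 higher and 1 lower, where 20% of all genes were called. The count was 3 without KO replicate 3, 4 without KO replicate 2 or without control replicate 5, 6 without KO replicate 1 or control replicate 6, and 7 without control replicate 2. Col1a2, Col4a2 and Col27a1 were called in all 11 fits that left out 1 library of these groups, Col6a1 in 10, Col15a1 and Col6a2 in 8, Col3a1 in 5, Col5a2 and Col13a1 in 4, Col14a1 in 3 and Col1a1 in 2. Without replicate 4, Col4a2 was at 0.70 ± 0.11, Col27a1 at 1.19 ± 0.20 and Col13a1 at 1.0 ± 0.15. On RFD the count was 2 without control replicate 1, 3 or 4 and 3 without KO replicate 1. Col4a2 and Col6a6 were called in all 8 such fits, Col15a1 in 4, Col1a2 in 2 and Col27a1 in 1. Apart from the fit without KO replicate 4 on HFD, the share of all genes called in these fits is not given here. Those counts therefore do not show a change particular to the collagens.

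**Figure D4:**
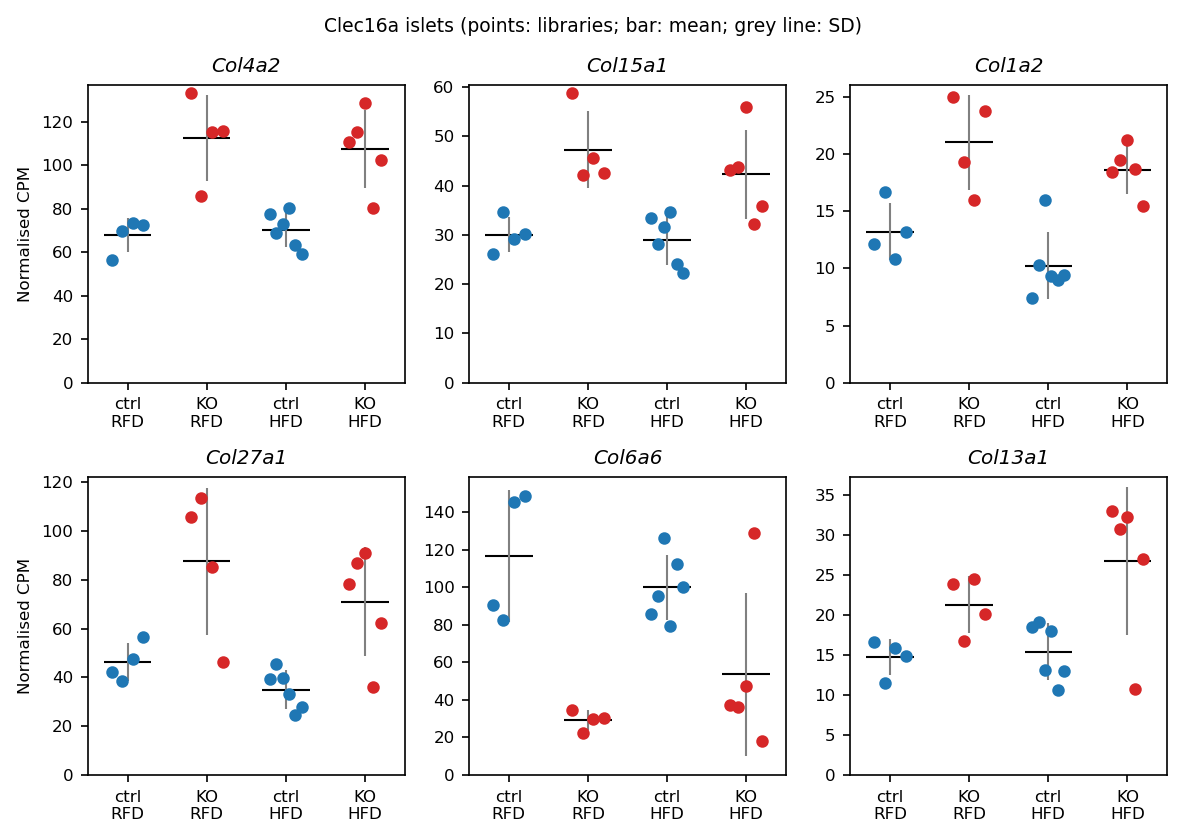
Normalised CPM of 6 collagen chains in Clec16a islets by genotype and diet; points are libraries, bars means and grey lines SD. Col4a2 and Col15a1 are higher in both KO groups, and 1 KO library on HFD (replicate 4) sits with the controls for Col13a1 (10.8) and above the controls for Col6a6 (129).

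Markers of vessel cells moved with these chains. Of 10 endothelial markers 8 were called higher on RFD and 9 on HFD, among them Tek (0.97 and 0.73), Kdr (0.72 and 0.55) and Emcn (0.69 and 0.53). Their summed level was 755 to 885 CPM in the KO on RFD against 473 to 503 CPM, and 500 to 879 CPM on HFD against 446 to 566 CPM; no marker was at 0 throughout a group. Summed mesenchymal markers were 187 to 246 CPM against 121 to 145 CPM on RFD and 124 to 303 CPM against 110 to 163 CPM on HFD, with the pericyte markers Pdgfrb (0.70 and 0.64) and Rgs5 (0.79 and 0.80) called higher on both diets.

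With the endothelial score as a covariate, an alternative chosen after seeing the data, 0 chains were called on either diet, and 0 of all genes tested. Col27a1 was then at -0.30 on RFD and -0.02 on HFD, and Col15a1 at -0.14 and -0.09. With the mesenchymal score 2 chains were called on RFD and 1 on HFD, and the share of all genes called is not given for it. On RFD the endothelial sums of the KO and control libraries do not overlap, so there the score and the genotype cannot be told apart.

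Col6a6 moved with mesothelial markers, whose summed level on RFD was 7.26 to 18.1 CPM in the KO and 48.8 to 102 CPM in the controls. The marker Msln fell on RFD (-2.87, adjusted p = 0.0225); it was the 1 tested there of the 4 listed markers, and the other 3 were at 0 in every library of each RFD group. On HFD the sums were 37.2 to 131 CPM in the controls, and the KO library with 92.8 CPM is also the one with the high Col6a6. In the Tfam KO islets, where Col6a6 fell too, the mesothelial sums were 71.7 to 149 CPM against 41.0 to 70.8 CPM in the controls. The part of these markers in the Col6a6 result was not tested.

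Pathway lists in the Clec16a islets are read against the 7.52% (RFD) and 9.57% (HFD) of all genes called. Other basement membrane genes moved on both diets. Of 17 tested, 9 were called higher and 2 lower on RFD, and 6 higher and 2 lower on HFD. On RFD the matrix glycoprotein Sparc rose by 0.91 ± 0.21 (adjusted p = 0.0123) and the vessel laminin Lama4 by 0.63 ± 0.15 (adjusted p = 0.0147), while Npnt, a ligand of integrins, fell by 0.89 ± 0.20 (adjusted p = 0.011). On HFD the laminins Lamb2 (0.55 ± 0.11, adjusted p = 0.00337) and Lama5 (0.68 ± 0.15, adjusted p = 0.00871) rose.

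Genes that fold collagen were called higher only, 2 of 20 on RFD, among them the collagen chaperone Serpinh1 (0.82 ± 0.19, adjusted p = 0.0139), and 6 of 20 on HFD, among them the prolyl 3-hydroxylase P3h2 (1.0 ± 0.26, adjusted p = 0.0204). Of 6 crosslinking and processing genes tested 0 were higher and 2 lower on each diet, again Loxl2 (-0.59 and -0.45) and Bmp1 (-0.36 and -0.49). Of 8 collagen receptors 1 was higher and 1 lower on each diet: Itga1 of the integrin for basement membrane collagen rose (0.79 and 0.78), and Itga2 of the integrin for fibrillar collagen fell (-1.83 and -1.31). Of 12 degradation genes 1 was higher on RFD (8.33%) and 2 on HFD (16.7%), Mmp15 on both (0.76 and 0.68). Of 14 fibril partners 1 (7.14%) and 3 (21.4%) were higher, Thbs1 on both (1.42 and 1.24). Of 17 TGF-β genes 1 was lower on RFD (5.88%), Ltbp2 (-1.90). On HFD 1 was higher (Tgfb3) and 1 lower (Smad2), which is 11.8%. On RFD the shares for folding (10%), degradation, fibril partners and TGF-β lie near the background. Those for crosslinking and processing (33.3%) and for receptors (25%) lie above it, on 2 called genes each.

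Diet alone moved no chain past the test. Of 36 chains tested 0 were called between HFD and RFD, in controls (where 0.0406% of all genes were called, 0.0058% higher and 0.0348% lower) or in the KO (0.0116%), with 4 and 7 chains (11.1% and 19.4%) at an unadjusted p under 0.05, as were 5.64% and 5.48% of all genes. The test of the KO effect between diets also called 0, with 2 chains (5.56%, against 2.35% of all genes) at an unadjusted p under 0.05, and DESeq2's Wald test called 0 in all 3. So the larger count on HFD than on RFD is not shown to be a difference between diets. The difference of the KO effects, HFD less RFD, was -0.12 ± 0.19 for Col4a2, 0.10 ± 0.35 for Col27a1 and 0.21 ± 0.25 for Col1a2. Of 17 other basement membrane genes 1 was called lower on HFD, the laminin chain Lama2, in controls (-1.57 ± 0.20, adjusted p = 0.00151) and in the KO (-1.43 ± 0.21, adjusted p = 0.0173).

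In liver, loss of the mitofusins and loss of Tfam both went with more RNA of Col4a1, Col4a2, Col1a1, Col6a3 and Col11a2 and with less of Col27a1. In the Mfn DKO, of 34 chains tested 8 were called higher and 1 lower, 26.5% of the chains, where 9.87% of all 17024 genes were called, 5.23% higher and 4.64% lower. In the Tfam KO 7 were called higher and 3 lower, 29.4%, where 29.3% of all genes were called, 18.1% higher and 11.3% lower, so the share of chains called there was near that of all genes. Without Tfam KO replicate 2, 6 chains were called, 5 higher and 1 lower, where 14.5% of all genes were called, and without replicate 3 there were 13, where 41.8% were. The median log2 fold change of the chains was 0.46 and 0.24, against 0.02 and 0.03 over all genes. Both comparisons use the same 6 controls.

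Col4a1 ran from 20.6 through a median of 22.8 to 28.3 normalised CPM in the control livers. It was at 59.7, 52.6, 67.8 and 47.1 in the Mfn DKO (1.26 ± 0.23, adjusted p = 0.00694) and at 66.0, 93.7 and 29.9 in the Tfam KO (1.41 ± 0.25, adjusted p = 0.00245). All 7 libraries lay above all controls, Tfam KO replicate 3 by the least. Without Tfam KO replicate 2 the difference was 1.02 ± 0.23 (adjusted p = 0.0146).

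Col4a2 ran from 13.4 to 17.5 normalised CPM in the controls and was at 38.9, 35.3, 50.4 and 32.0 in the Mfn DKO (1.31 ± 0.25, adjusted p = 0.00731). In the Tfam KO it was at 40.3, 65.0 and 19.4 (1.39 ± 0.26, adjusted p = 0.00319; 0.92 ± 0.23 without replicate 2), and no library overlapped the controls. Here both genes of the head-to-head pair were called, and the ratio of Col4a1 to Col4a2 per length was 1.34 ± 0.195 (SD, n = 6) in controls, 1.29 ± 0.0724 (n = 4) in the Mfn DKO and 1.37 ± 0.0878 (n = 3) in the Tfam KO.

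Col4a3 and Col4a4, another head-to-head pair and known from the kidney filter, were called higher in the Mfn DKO and not in the Tfam KO. Col4a3 was at 0.635, 4.44, 1.75 and 3.45 normalised CPM there and at 0.555 to 1.0 in the controls (1.81 ± 0.42, adjusted p = 0.0193). Col4a4 was at 0.868, 1.93, 1.17 and 2.28 against 0.366 to 0.781 (1.19 ± 0.30, adjusted p = 0.0272). Replicates 2 and 4, the Mfn DKO libraries with high Xist, were the highest for both chains. The test of Tfam KO against Mfn DKO did not separate the models for Col4a3 (-1.43 ± 0.52, adjusted p = 0.157) or Col4a4 (-1.07 ± 0.36, adjusted p = 0.136).

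Col1a1 ran from 3.60 through a median of 4.81 to 6.62 normalised CPM in controls. It was at 10.7, 14.7, 10.5 and 11.1 in the Mfn DKO (1.27 ± 0.25, adjusted p = 0.00857) and at 14.3, 19 and 7.09 in the Tfam KO (1.46 ± 0.26, adjusted p = 0.00253; 1.14 ± 0.26 without replicate 2), with no overlap. Col1a2 was called in the Mfn DKO, at 16.4 to 25.4 against 8.44 to 16.2 (0.67 ± 0.19, adjusted p = 0.0442; called in 2 of 10 fits that left out 1 library), and stood at 14.4 to 23.0 in the Tfam KO (0.56 ± 0.21, adjusted p = 0.0621). Col3a1 missed the threshold in both models (0.68 ± 0.21, adjusted p = 0.0571, and 0.54 ± 0.23, adjusted p = 0.0937), though in the Mfn DKO its 45.0 to 52.8 lay above all controls.

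Col6a3, the large chain of the type VI filament, ran from 4.57 to 6.94 normalised CPM in controls. It was at 9.99, 13.2, 9.44 and 9.98 in the Mfn DKO (0.84 ± 0.15, adjusted p = 0.00632) and at 11.8, 8.14 and 9.97 in the Tfam KO (0.74 ± 0.17, adjusted p = 0.00671). No library overlapped the controls in either model. Col11a2, a fibrillar chain known from cartilage, was at 0.867 to 1.66 in controls and at 6.54, 5.95, 8.25 and 4.89 in the Mfn DKO (2.37 ± 0.51, adjusted p = 0.0135). In the Tfam KO it was at 6.90, 23.5 and 1.57, with replicate 3 among the controls (3.11 ± 0.53, adjusted p = 0.00216; 1.78 ± 0.40 without replicate 2).

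Col27a1 was called lower in both models. The controls were at 180, 168, 59.7, 61.9, 99.0 and 202 normalised CPM, the Mfn DKO at 26.7, 12.5, 18.2 and 15.8 and the Tfam KO at 25.1, 5.52 and 45.2. No library of either model reached the lowest control. The differences were -2.81 ± 0.55 (adjusted p = 0.00924) and -2.35 ± 0.61 (adjusted p = 0.0133), and -1.87 ± 0.52 (adjusted p = 0.0321) without Tfam KO replicate 2.

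For several called chains the controls with high and with low Xist did not overlap. Col1a1 was 5.36 to 6.62 normalised CPM with high and 3.60 to 4.25 with low Xist, Col1a2 13.8 to 16.2 and 8.44 to 11.5, and Col11a2 1.23 to 1.66 and 0.867 to 1.07. Col12a1 was 2.63 to 3.77 with high and 1.21 to 1.34 with low Xist. For Col27a1, Col5a3 and Col25a1 the low-Xist controls were the higher ones. Col27a1 was 168 to 202 normalised CPM in the 3 controls with low Xist and 59.7 to 99.0 in the 3 with high Xist. Among libraries with low Xist the Mfn DKO were at 18.2 and 26.7 and the Tfam KO at 25.1; among those with high Xist they were at 12.5 and 15.8, and at 5.52 and 45.2. Within each Xist set, every library of both models lay below every control.

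Col5a3 was 37.0 to 48.8 normalised CPM in the low-Xist and 6.92 to 15.7 in the high-Xist controls. It was 10.6, 2.39 and 4.72 in the Tfam KO (-2.23 ± 0.66, adjusted p = 0.0238), the first of low and the others of high Xist, and each lay below the controls of its own set. Without replicate 2 the difference was -1.85 ± 0.71 (adjusted p = 0.0995). In the Mfn DKO it was 11.7 to 16.5 (-1.09 ± 0.55, adjusted p = 0.222), where the 2 low-Xist libraries, at 11.8 and 16.5, lay below the low-Xist controls and the 2 high-Xist libraries, at 11.7 and 12.1, inside the high-Xist range.

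Col25a1, a membrane-spanning collagen known from neurons, was at 0.596 to 1.10 normalised CPM in low-Xist and 0.129 to 0.247 in high-Xist controls. It was at 0.0655, 0.0779 and 0.179 in the Tfam KO (-2.27 ± 0.75, adjusted p = 0.0388), where 1 high-Xist library lay inside the high-Xist control range, and at -2.07 ± 0.90 (adjusted p = 0.144) without replicate 2. Col22a1 was called in the Tfam KO at 4.45 ± 1.33 (adjusted p = 0.0249) on 1 library: the values were 0.0983, 2.80 and 0.0447, with 0 to 0.164 in the controls, and without replicate 2 the difference was 0.74 ± 1.44 (adjusted p = 0.78). Col12a1, at 3.38, 11.2 and 2.64 against 1.21 to 3.77, was likewise at 1.34 ± 0.46 (adjusted p = 0.0441) with and 0.41 ± 0.41 (adjusted p = 0.545) without that library.

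Col18a1, the main collagen of liver, ran from 754 to 1111 normalised CPM in controls, 867 to 1021 in the Mfn DKO (-0.04 ± 0.17, adjusted p = 0.89) and was at 757, 514 and 912 in the Tfam KO (-0.42 ± 0.19, adjusted p = 0.107). Col6a1 (0.33 ± 0.16 and 0.11 ± 0.17) and Col15a1 (0.84 ± 0.40 and 0.20 ± 0.44) did not pass in either model. Of 34 chains tested 0 were called by edgeR between Tfam KO and Mfn DKO, where 0.294% of all genes were called (0.106% higher, 0.188% lower), 4 (11.8%, against 20.4% of all genes) had an unadjusted p under 0.05, and DESeq2's Wald test called 1.

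**Figure D5:**
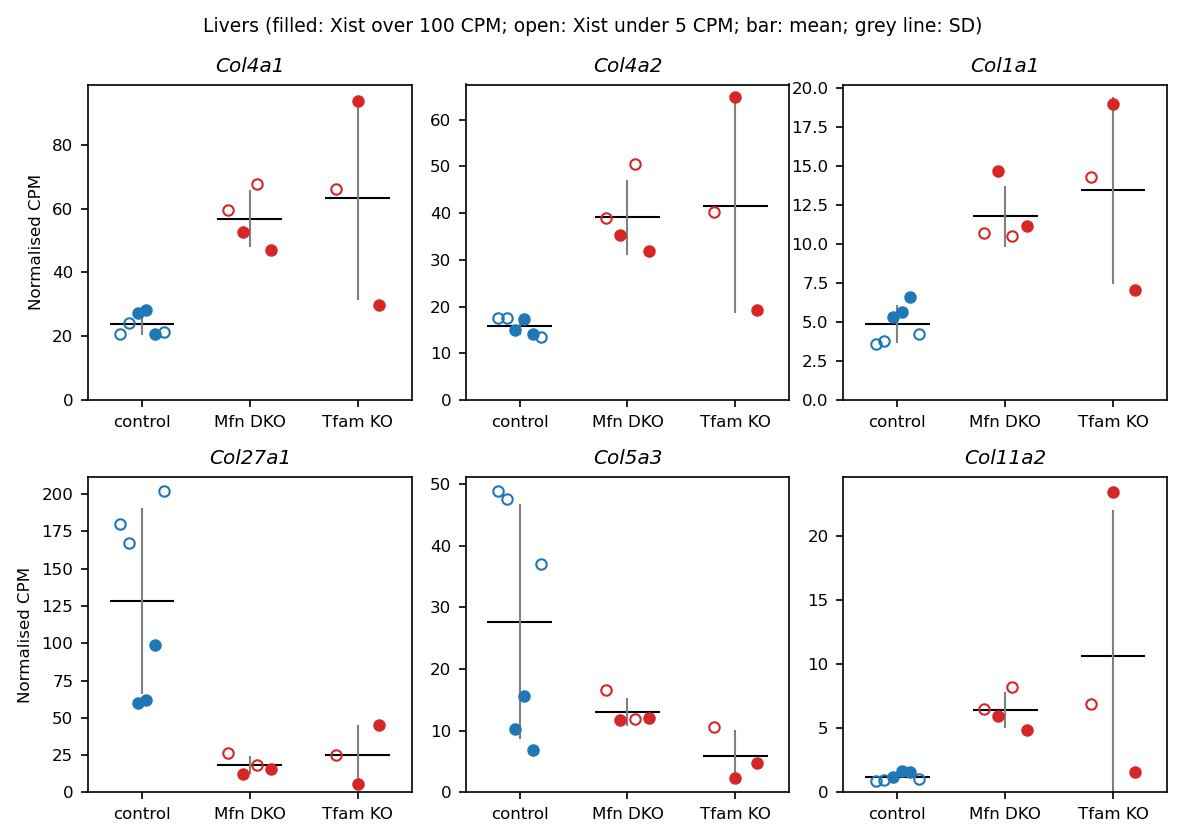
Normalised CPM of 6 collagen chains in the livers; filled points are libraries with Xist over 100 CPM and open points those under 5 CPM, bars are means and grey lines SD. Col4a1 and Col4a2 are higher and Col27a1 lower in all 7 libraries of the 2 models, and the open and filled controls separate for Col27a1 and Col5a3.

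Summed mesenchymal markers were 326 to 405 CPM in controls, 380 to 486 CPM in the Mfn DKO and 293 to 390 CPM in the Tfam KO, and summed endothelial markers 265 to 308, 258 to 415 and 262 to 317 CPM. Of 12 mesenchymal markers tested, 1 was called higher in the Mfn DKO (Rgs5, 0.78), and 1 higher (Pdgfra, 0.53) and 1 lower (Reln, -0.27) in the Tfam KO, neither of them without replicate 2 (adjusted p = 0.235 and 0.102). With the mesenchymal score as a covariate 4 chains were called in the Mfn DKO and 10 in the Tfam KO, and with the Xist level 12 and 11. These counts are given without the share of all genes called, so they do not show a change particular to the collagens. Summed macrophage markers, 473 to 901 CPM in controls, were 598 to 1212 and 289 to 829 CPM, and their part was not tested.

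Pathway lists are read against the 29.3% of all genes called in the Tfam KO and the 9.87% called in the Mfn DKO. Of 20 folding and secretion genes 0 passed in the Mfn DKO and 5 (25%) in the Tfam KO, 4 higher and 1 lower, among them the lysyl hydroxylase Plod1 (0.59 ± 0.14, adjusted p = 0.00822; 0.56 ± 0.16 without replicate 2). Of 18 other basement membrane genes 0 passed in the Mfn DKO and 6 (33.3%) in the Tfam KO, 5 higher and 1 lower. Both shares in the Tfam KO lie near its background. Npnt was at 3.90 ± 0.69 (adjusted p = 0.00234) and at 1.79 ± 0.44 (adjusted p = 0.0203) without replicate 2. The laminin Lamc1 was at 1.67 ± 0.31 (adjusted p = 0.00276) and 0.93 ± 0.20 (adjusted p = 0.0118), and Nid1, which joins laminin to type IV collagen, at 1.69 ± 0.39 (adjusted p = 0.00806) and, no longer called, 0.52 ± 0.19 (adjusted p = 0.0805). Of 11 processing and crosslinking genes 4 were higher in the Tfam KO, with Loxl4 at 1.87 ± 0.39 (adjusted p = 0.00476; 0.96 ± 0.29 without replicate 2), and Bmp1 was lower (-0.68 ± 0.17, adjusted p = 0.0127; -0.53 ± 0.18, adjusted p = 0.0626, without it).

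The collagen receptor kinase Ddr1 rose in the Tfam KO by 3.68 ± 0.59 (adjusted p = 0.00157; 2.08 ± 0.41 without replicate 2), 1 of 2 receptors called of 8 tested, and in the Mfn DKO 1 receptor was called, Adgrg6 (0.86 ± 0.24, adjusted p = 0.0392). Of 17 TGF-β genes 7 were higher and 1 lower in the Tfam KO, and 2 were higher and 1 lower in the Mfn DKO. Ccn2, a matrix protein induced by TGF-β, was at 2.91 ± 0.57 (adjusted p = 0.00381) in the Tfam KO and at 0.95 ± 0.29 (adjusted p = 0.0428) without replicate 2. The ligand Tgfb2 was at 2.71 ± 0.59 (adjusted p = 0.00609) and, no longer called, 1.17 ± 0.46 (adjusted p = 0.111). Mmp12 was called higher in both models (3.17 ± 0.70, adjusted p = 0.0149, and 2.76 ± 0.73, adjusted p = 0.0142), as was the microfibril protein Fbn1 (0.74 ± 0.17, adjusted p = 0.018, and 0.87 ± 0.18, adjusted p = 0.00518), and both were called in the Tfam KO without replicate 2 (3.28 ± 0.63 and 0.68 ± 0.19).

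Side by side, Col1a1 was called higher after loss of Tfam in islets (1.38 ± 0.30) and in liver (1.46 ± 0.26), while Col5a3 was called higher in islets (1.09 ± 0.23) and lower in liver (-2.23 ± 0.66). Col4a1 was at -0.02 ± 0.11 in Tfam KO islets and 1.41 ± 0.25 in Tfam KO liver. Col14a1, the leading chain of the Tfam KO islets, was 48.2 to 69.9 normalised CPM in control liver, 62.5 to 84.3 in the Mfn DKO and 30.4 to 64.6 in the Tfam KO and was not called there. The tissues were fitted apart, and the differences between them were not tested.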

How the data were processed

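RNA was sequenced from 33 islet and 13 liver libraries. The authors deposited, per gene and library, raw read counts, TPM and CPM; the deposited CPM values are the count over the library total. STAR 2.6.1b, RSEM 1.3.1, featureCounts and build GRCm38 are named in the submitters' processing notes; the strand setting of the counting is not given in the sources used here. Each of the 3 experiments was fitted alone with edgeR 4.0.16 (R 4.3.3): TMM scaling, filterByExpr by group, the quasi-likelihood F-test, and p-values adjusted by Benjamini-Hochberg across every gene in the fit, called at 0.05; sex was a covariate in the Tfam islets. The SE is the absolute log2 fold change over the square root of F. TPM values are not TMM-scaled. The titles call the replicates biological; p-values measure the spread between these libraries.

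All 44 chains entered the counts, but not every chain that was never called is named. Values by library are given for up to 6 called chains with the smallest adjusted p per comparison. They are also given for Col1a1, Col1a2, Col3a1, Col4a1, Col4a2, Col6a1, Col15a1 and Col18a1. Up to 3 called genes are named per pathway list. The chains and lists were chosen with earlier results of these data known. Alternatives were DESeq2 1.42.0, other scaling, no filter, fewer groups, a replicate block, lane, each library left out and, chosen after seeing the data, marker and Xist scores. The main fit was also run on simulated counts with an assumed spread and no outlying library. Its outcome is not given here, and it is no check of the spread in these data. Deviations of same-numbered libraries had a median correlation of 0.0653, -0.0163 and 0.0873 in the Tfam islets, Clec16a islets and livers. Other pairs of libraries had medians of -0.0121, -0.0123 and -0.045. Same-number pairs ran from -0.0965 to 0.212, from -0.253 to 0.307 and from -0.343 to 0.35. The labels do not say what a number marks, and numbers were not used as pairs in the main fits. 1 gene of a pathway list is not reported here.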

Additional observations from a re-analysis of the deposited data

Results flagged for a closer look

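Of 122 pairs of a chain and a group checked, 12 had 1 library far from the others of the group. Chance alone gives about 1 in 20 such pairs. Checked were Col1a1, Col1a2, Col3a1, Col4a1, Col4a2, Col6a1, Col15a1, Col18a1 and the chains called in the experiment concerned. The Tfam KO livers and the male Tfam islet groups held too few libraries to be checked. Replicate 4 of the Clec16a KO on HFD was low for Col13a1 (10.8 normalised CPM) and high for Col6a6 (129). Among Clec16a controls, Col18a1 was low in replicate 4 on HFD (2.21), Col1a2 high in replicate 3 on HFD (16) and Col3a1 high in replicate 2 on RFD (14.2). Col14a1 was low in female Tfam control replicate 4 (1.80). In the Mfn DKO livers Col15a1 was high in replicate 4 (12.8), Col1a1 (14.7) and Col6a3 (13.2) in replicate 2, and Col5a3 in replicate 1 (16.5). In control livers Col22a1 was high in replicate 4 (0.164) and Col4a4 low in replicate 3 (0.366).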

How the results depend on the processing

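Of 932 values of single chains under alternatives, 735 kept their direction and side of the threshold, 190 kept the direction but no longer passed, and 7 reversed. All 7 came with the endothelial score as a covariate in the Clec16a islets: on HFD Col13a1 -0.41, Col14a1 -0.021, Col15a1 -0.088, Col27a1 -0.022 and Col6a1 -0.10, and on RFD Col15a1 -0.14 and Col27a1 -0.30. The count of chains called was then 0 on HFD and 0 on RFD, and with the mesenchymal score 1 on HFD, 2 on RFD and 4 in the Mfn DKO. With lane as a covariate it was 3 on RFD; with only the groups compared it was 6 in the Tfam KO livers. DESeq2's Wald test called 1 chain for genotype by sex and 1 between the liver models, and fitting with no filter called 1 for genotype by sex. The cause of these changes was not tested.

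Fits that each dropped 1 library called 8 to 13 chains in the Tfam islets, 2 to 6 on RFD, 3 to 16 on HFD, 6 to 10 in the Mfn DKO, 6 to 13 in the Tfam KO livers and 0 to 2 between the liver models. With the replicate block 8 chains were called in the Tfam islets, 4 on RFD, 4 on HFD, 0 in the Mfn DKO and 0 in the Tfam KO livers. The labels do not say whether a replicate number marks shared animals or days. In this section the counts of chains stand without the share of all genes called, so they are not results about collagens alone.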
